A study of Mus musculus with 6 samples.

Results

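The genes described here encode the nuclear subunits of respiratory complexes II to V, together with cytochrome c. There are 40 of them among the 11815 genes of the deposited table: 4 of complex II, 9 of complex III, 1 for cytochrome c, 12 of complex IV and 14 of complex V. They were chosen by name, with earlier results of these data known. All 40 were found under the listed symbols, with ATP synthase under its older names (Atp5a1, Atp5b and so on). RNA came from the gastrocnemius, a calf muscle of mostly fast fibres. There were 3 wild-type (WT) libraries, replicates 2, 3 and 4, and 3 libraries from lnc-ORA knockout (KO) mice, replicates 1, 2 and 3. The KO mice carried a CRISPR deletion of 5147 bp that takes out the whole long non-coding RNA in every cell type, on a C57BL/6 background, and the study gives their age as 15 weeks. No separate age was given for the WT mice, which were taken to be 15 weeks old as well. The question behind the series was the part of lnc-ORA when one muscle fibre type changes into another. Sex, zygosity, the number of founder lines and the animal behind each library were not stated in the labels. The p-values therefore describe spread among these 6 libraries, which may be technical. The deleted locus was not analysed here, and the genotype labels were taken as given.

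Mitochondria make most of the ATP of working muscle by passing electrons down a chain of protein complexes in their inner membrane. Complex II feeds in electrons from succinate, complex III passes them to the small carrier cytochrome c, and complex IV hands them to oxygen. Complexes III and IV pump protons as they work, and complex V, the ATP synthase, lets the protons back to make ATP. All 4 subunits of complex II are nuclear genes, while complexes III, IV and V also need subunits from the mitochondrial genome. Slow and oxidative fibres hold more of these complexes than fast glycolytic fibres do, and several complex IV subunits come in a muscle form and a form made in most tissues.

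The libraries held 54370181 to 69693905 counted reads. Values are RPKM, reads per kilobase of exonic gene length scaled to the counted reads of the library, and 7574 genes that reached 1 RPKM in at least 3 libraries were tested. Skeletal muscle markers were abundant in all 6 libraries, with a sum over 6 markers of 10310 to 10677 RPKM in WT and 9500 to 10539 in KO, although myoglobin (Mb), 1 of the 6, fell. Markers of other cell types moved with genotype or between libraries. The sum of 6 nerve and Schwann cell markers was 31.2 to 49.7 RPKM in WT and 7.14 to 9.86 in KO, and all 4 that could be tested fell. Over 9 endothelial markers the sum was 25.8 to 39.9 RPKM in WT and 22.4 to 24.0 in KO, and 1 of 8 tested fell. For 8 slow fibre markers it was 1092, 173 and 688 RPKM in WT replicates 2, 3 and 4 and 502, 541 and 334 in KO, and none of the 8 was called by limma at an adjusted or unadjusted p under 0.05. Fast fibre markers also moved. Of 10, the myosins Myh1 of IIx fibres and Myh2 of IIa fibres fell, the more oxidative of the fast types. Myh1 was at 2674, 2956 and 1666 RPKM in WT and 1053, 1466 and 885 in KO (adjusted p = 0.0225), and Myh2 at 1715, 1426 and 1721 in WT and 706, 1251 and 729 in KO (adjusted p = 0.0261). Myh4, the myosin of glycolytic IIb fibres, was at 33937, 35804 and 31050 RPKM in WT and 41918, 40638 and 41478 in KO, without overlap (adjusted p = 0.0885). Of 5 cardiac markers 2 were measured, with a sum of at most 7.36 RPKM in any library, and of 7 adipocyte markers 1 was measured. In whole muscle, fewer cells of a type and less RNA per cell cannot be told apart. The part of these markers in the results below was not tested.

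On the deposited RPKM scale, transcripts of complexes II to V were slightly lower in KO muscle across nearly all subunits, and few single genes passed the test. This direction depended on library scaling: with the 10 most abundant genes left out of the totals, 19 of 40 members were below 0, with equal library medians 27 were, and neither scaling gave a call. All 40 members were tested. Uqcrc2 and Uqcrq of complex III, Cox6b1 of complex IV and Atp5l of complex V fell, with changes of -19.4% to -21.6% of the mean WT level, and no member rose. These 4 of 40 are 10% of the members, beside 13.5% of all tested genes called lower and 3.83% called higher by limma at an adjusted p of 0.05. The share of called members was therefore no larger than the share over all genes. At an unadjusted p under 0.05, 12 members were lower and 0 higher, beside 25.8% and 7.59% of all tested genes. With KO replicate 1, 2 or 3 left out no member passed the adjusted threshold, with an adjusted p of the 4 genes of 0.104 to 0.111, 0.0622 to 0.103 and 0.093 to 0.138. Their log2 fold changes were then -0.27 to -0.37, beside -0.30 to -0.34 with all libraries. Without WT replicate 2, 2 of the 4 were called, beside 9.76% of all tested genes called lower. Without WT replicate 3 1 was, beside 7.42%, and without WT replicate 4 all 4 were, beside 17.1%. With KO replicate 1, 2 or 3 left out, 5.07%, 6.75% and 4.67% of all tested genes were called lower.

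The direction was shared by most members although the size was small. The fitted log2 fold change (KO minus WT, on log2(RPKM + 1)) was below 0 for 38 of 40 members, beside 67.6% of all tested genes. Its median was -0.17 over the members and -0.09 over all tested genes, and single members lay between -0.34 (Uqcrq) and 0.06 (Sdhd). Standard errors of the members were 0.07 to 0.13, and most single differences did not pass the adjusted threshold. Every KO library lay below every WT library for 21 of 40 members, beside 30.0% of all tested genes, and every KO library lay above every WT library for 0 members, beside 9.22%.

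**Figure D1:**
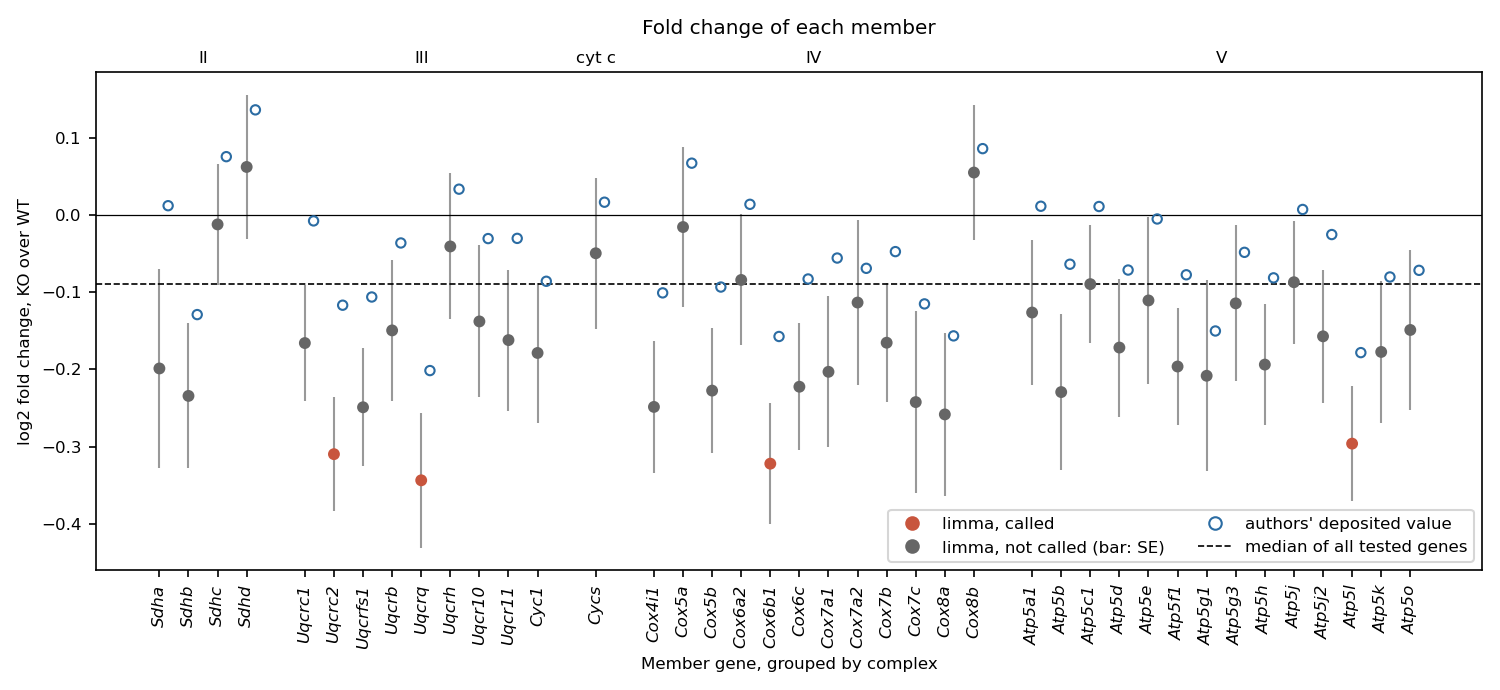
Log2 fold change of each of the 40 members, KO minus WT on the log2(RPKM + 1) scale, grouped by complex, with bars for the standard error; coloured points are the 4 members with an adjusted p under 0.05. Points lie below 0 for 38 members, and all fall between -0.34 and 0.06.

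A few very abundant genes made up a large share of the summed RPKM, and the share differed between libraries. The 10 most abundant genes, among them Tnnc2, Myh4 and Tnnt3 of the fast sarcomere, took 42.0%, 45.1% and 46.5% of all RPKM in WT replicates 2, 3 and 4 and 49.8%, 46.7% and 48.7% in KO replicates 1, 2 and 3. All 3 KO libraries lay above all 3 WT libraries in this share. With each library scaled to its summed RPKM without those 10 genes, 40.3% of all tested genes were below 0, beside the 19 of 40 members. The member median was 0.01. No member was called lower or higher, beside 6.14% of all tested genes called lower and 10.1% called higher. At an unadjusted p under 0.05, 2 members (Sdhd and Cox8b) were higher. The share of all tested genes at that p was not counted under this scaling, so the 2 cannot be set beside it. That scaling moved the median of all tested genes to 0.05 and changed the calls over all genes from 1021 lower and 290 higher to 465 lower and 768 higher. With equal library medians 48.7% of all tested genes were below 0, and the member median was -0.04 beside 0.01 for all genes. No member was called there, beside 9.33% of all tested genes called lower and 7.84% called higher. On the TPM scale, with all genes in the summed RPKM, 34 members were below 0, beside 56.1% of all tested genes. The member median was -0.09, beside -0.04. There 0 members were called, beside 453 genes called lower (5.98% of those tested) and 317 called higher. Across these 3 scalings the adjusted p of Uqcrc2, Uqcrq, Cox6b1 and Atp5l was 0.0838 to 0.302. Relative to the median of all tested genes, the member median was lower by a similar small amount under each scaling: -0.08 as reported, -0.05 with equal medians, -0.06 on the TPM scale and -0.04 without the abundant genes.

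**Figure D2:**
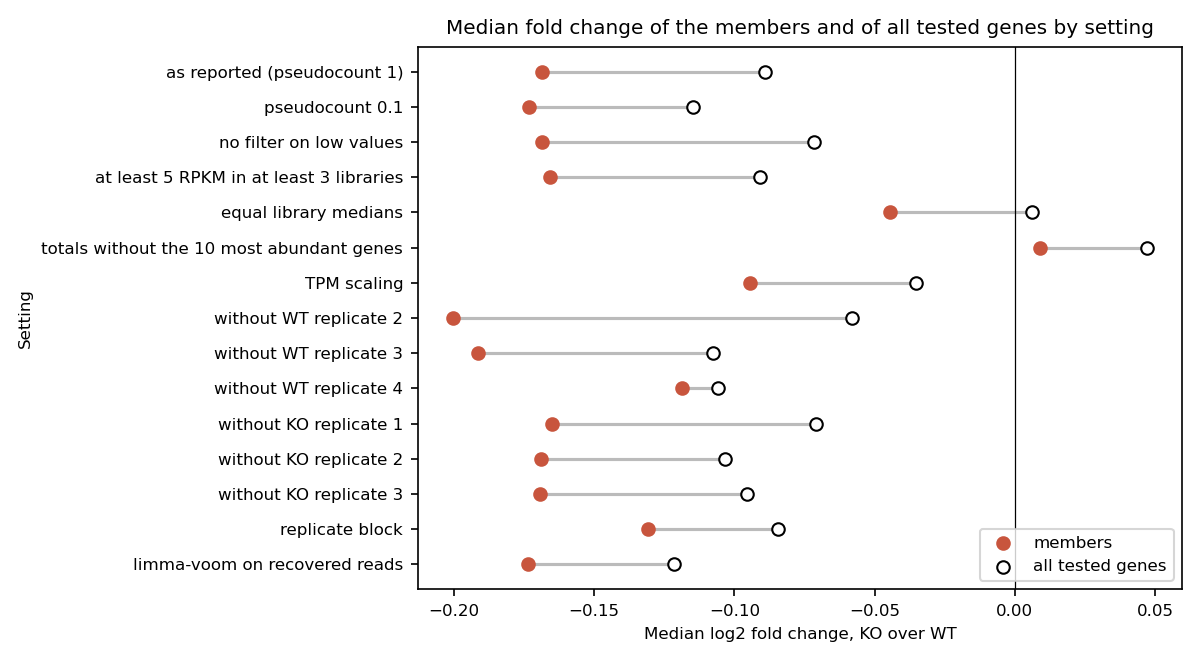
Median log2 fold change (KO minus WT) of the 40 members and of all tested genes under each way of scaling, filtering or leaving out a library. The member median runs from -0.20 without WT replicate 2 to 0.01 with totals that leave out the 10 most abundant genes.

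The dependence on scaling also showed in the summed levels. The RPKM of all 40 members came to 6141, 6096 and 6549 in WT (mean 6262 ± 249, SD, n = 3) and to 5593, 5617 and 5584 in KO (5598 ± 17.3). As a share of all RPKM the members took 1.28%, 1.29% and 1.27% in WT and 1.18%, 1.22% and 1.22% in KO, and the groups did not overlap. As a share of the RPKM outside the 10 most abundant genes they took 2.20%, 2.35% and 2.37% in WT and 2.36%, 2.29% and 2.37% in KO, and there the groups overlapped.

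In complex II, which oxidises succinate and also serves the tricarboxylic acid cycle, none of the 4 subunits was called at the adjusted threshold. At an unadjusted p under 0.05, 1 was lower and 0 higher. Sdhb, the iron-sulphur subunit, had the smallest p of the complex. It was at 46.4, 41.5 and 51.0 RPKM in WT and 39.96, 39.6 and 37.7 in KO, with all KO values below all WT values. Its log2 fold change of -0.23 (SE 0.09) had an adjusted p of 0.123. Sdha, the flavin-carrying catalytic subunit and the most abundant of the 4, was at 121, 118 and 95.6 RPKM in WT and 85.6, 111 and 95.0 in KO. WT replicate 4 and KO replicate 2 crossed there, and the difference of -0.20 had an adjusted p of 0.314. Sdhd, a membrane anchor, was at 39.5, 36.9 and 45.5 RPKM in WT and 42.2, 41.6 and 43.1 in KO, so the KO values lay inside the WT range. Sdhc, the other anchor, differed by -0.01 (adjusted p = 0.934). Of the 4, Sdhd alone was above 0, and the median of the complex was -0.11.

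Complex III held 2 of the 4 called members, and all 9 of its subunits were below 0, with a median of -0.17. Uqcrc2, a large core subunit, was at 39.0, 38.6 and 40.5 RPKM in WT and 30.7, 32.6 and 31.3 in KO. The groups were well apart, at 39.3 ± 0.984 and 31.6 ± 0.981 RPKM (mean ± SD, n = 3 each). The fitted log2 difference was -0.31 (SE 0.07, limma adjusted p = 0.0264). Uqcrq, a small membrane subunit, was at 90.0, 79.3 and 91.2 RPKM in WT and 67.3, 66.0 and 71.0 in KO. This was the most negative difference of all 40 members, -0.34 (SE 0.09, adjusted p = 0.033). In Uqcrq no stretch of 50 bases was shared with another gene, whereas 24.8% of such stretches of Uqcrc2 also lie in Pdzd9 on the opposite strand. Strand use in the counting was not stated, so reads of that stretch cannot be told apart.

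The other 7 complex III genes were lower by less, and none of them was called. Uqcrfs1, the Rieske iron-sulphur protein that carries electrons to cytochrome c1, averaged 126 ± 5.57 RPKM in WT against 106 ± 1.39 in KO (SD, n = 3 each). Its groups did not overlap and its adjusted p was 0.0598. Uqcrb, the most abundant member of all 40 per length, was at 994, 1098 and 1133 RPKM in WT and 1007, 931 and 965 in KO. Its groups overlapped (log2 fold change -0.15, adjusted p = 0.288), and 19.2% of its 50-base stretches were shared with other genes. Uqcrc1, the partner core subunit of Uqcrc2, differed by -0.17 (adjusted p = 0.167) and averaged 86.0 ± 0.950 RPKM in WT against 76.6 ± 3.25 in KO, again without overlap. Cyc1, the cytochrome c1 heme protein, was at 42.6 ± 4.33 and 37.4 ± 0.809 RPKM, also without overlap. Uqcrh, the hinge protein, was nearest to 0, at -0.04. In all, every KO library lay below every WT library for 6 of the 9 genes on the deposited RPKM scale, beside 30.0% of all tested genes.

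Cytochrome c, which shuttles electrons from complex III to complex IV, differed little between the groups. Its gene Cycs was at 104, 106 and 127 RPKM in WT and 112, 106 and 106 in KO. Apart from WT replicate 4 the libraries of both genotypes lay within a narrow range, and the difference was -0.05 (SE 0.10, adjusted p = 0.755). Of its 50-base stretches 28.5% were shared with 79 other genes, so part of its level is uncertain.

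Of the 12 complex IV subunits 1 fell and 11 were below 0, with a median of -0.21. Cox6b1, an intermembrane-space subunit where the monomers of the enzyme meet, was at 107, 104 and 115 RPKM in WT and 85.6, 88.1 and 86.6 in KO. The means were 109 ± 5.75 and 86.8 ± 1.26 RPKM (mean ± SD, n = 3 each). The fitted log2 difference was -0.32 (SE 0.08, limma adjusted p = 0.0288), and no 50-base stretch was shared with another gene. Cox4i1, the main form of the regulatory subunit 4, averaged 253 ± 16.1 RPKM in WT against 212 ± 8.29 in KO (adjusted p = 0.083). Cox5b was at 316 ± 10.9 and 269 ± 11.5 RPKM (adjusted p = 0.0911), with 25.9% of its stretches shared. Cox6c was at 125 ± 7.73 and 107 ± 3.07 RPKM (adjusted p = 0.101). The groups of these 3 genes did not overlap, and each missed the adjusted threshold.

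The muscle forms of complex IV subunits were abundant in every library and none was called. Cox6a2, the heart and muscle form of subunit 6a and the most abundant complex IV member per length, was at 408, 384 and 433 RPKM in WT and 395, 387 and 372 in KO. The groups overlapped (-0.08, adjusted p = 0.52). Cox7a1, the muscle form of subunit 7a, was at 246, 205 and 250 RPKM in WT and 206, 198 and 202 in KO, where WT replicate 3 lay among the KO values (-0.20, adjusted p = 0.188). Its counterpart in most tissues, Cox7a2, was low, at 7.58, 7.91 and 9.89 RPKM in WT and 8.25, 7.37 and 7.50 in KO. Cox8b, the muscle form of subunit 8, was at 118, 109 and 129 RPKM in WT and 122, 122 and 126 in KO, with all KO values inside the WT range (0.06, adjusted p = 0.695). Cox8a, its counterpart in most tissues, was the lowest of all members, at 2.26, 2.63 and 2.63 RPKM in WT and 2.16, 2.14 and 1.53 in KO. Its groups did not overlap, its log2 fold change was -0.26 (adjusted p = 0.128), and its lowest library rested on 51 reads.

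A ratio of 2 forms within a library does not depend on the scaling, and 3 such ratios were computed. Cox8b was 52.2, 41.6 and 49.1 times Cox8a in WT and 56.4, 56.7 and 82.6 times in KO. The KO ratios all lay above the WT ratios, by 0.44 on the log2 scale, with an exact two-sided permutation p of 0.1 (0.3 after Benjamini-Hochberg adjustment over 3 ratios), the smallest p that 3 libraries against 3 allow. Cox8a is the less well counted of the pair, and KO replicate 3, where it rested on the 51 reads, had the highest ratio. Cox7a1 was 27.9 ± 3.93 times Cox7a2 in WT and 26.3 ± 1.16 times in KO (SD, n = 3 each, exact permutation p = 0.8). Atp5g1 and Atp5g3, which encode the same mature ring subunit of complex V behind different import signals, had a log2 ratio of -1.73 ± 0.09 in WT against -1.86 ± 0.08 in KO (SD, n = 3 each, exact permutation p = 0.2, adjusted 0.3).

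**Figure D3:**
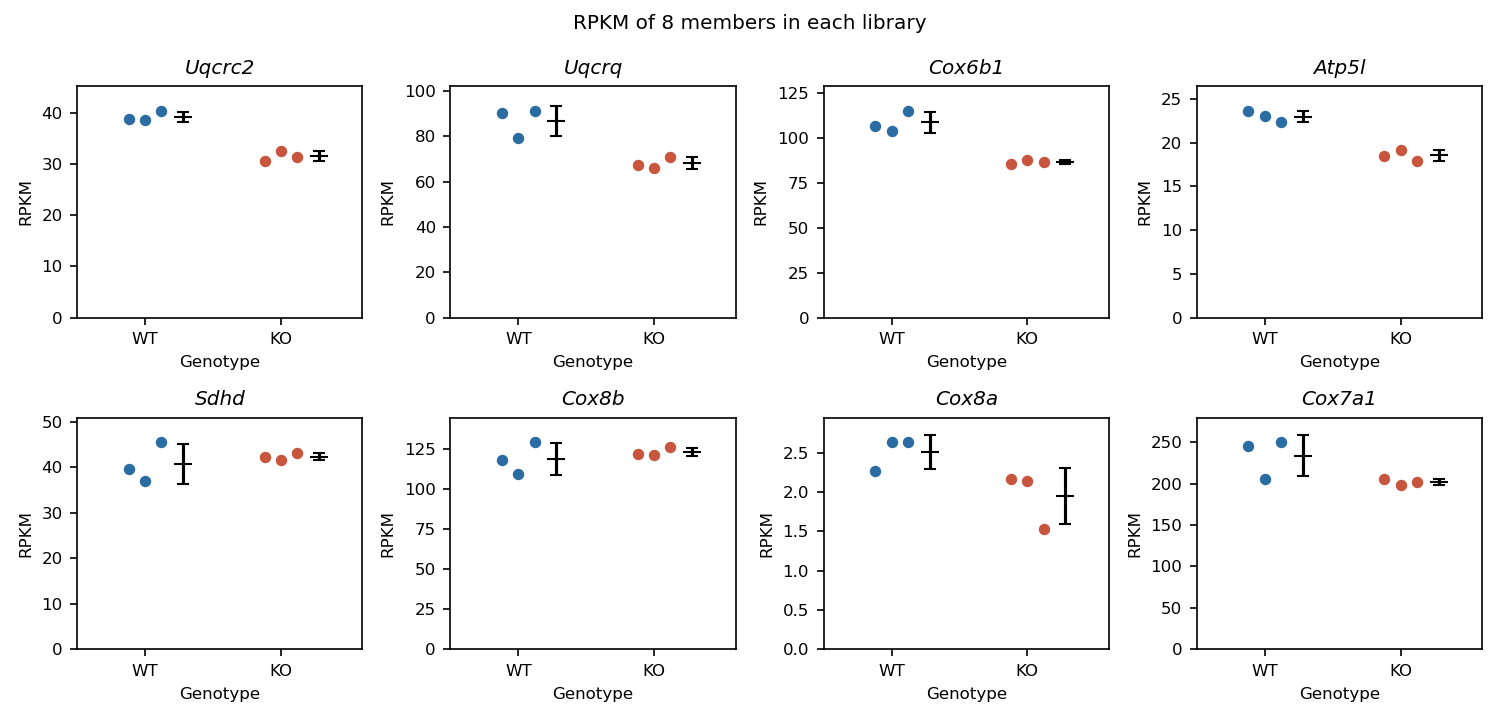
RPKM in each library for named members, with WT replicates 2, 3 and 4 beside KO replicates 1, 2 and 3, the mean and SD of each group in black and an axis from 0. In Uqcrc2, Uqcrq, Cox6b1 and Atp5l all KO points lie below all WT points, while in Cox8b and Sdhd the KO points lie within the WT range.

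All 14 complex V genes were below 0, with a median of -0.16 and a range of -0.30 to -0.09, and 1 fell. Atp5l, subunit g of the membrane part, was at 23.6, 23.0 and 22.3 RPKM in WT and 18.5, 19.2 and 17.9 in KO. The groups were apart by several SDs, at 23.0 ± 0.652 and 18.5 ± 0.654 RPKM (mean ± SD, n = 3 each). The fitted log2 difference was -0.30 (SE 0.07, limma adjusted p = 0.0318). Among its 50-base stretches 7.49% were shared, and its exons overlap Gm30934 on the opposite strand.

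Atp5b and Atp5a1, of the catalytic head of the synthase, had larger standard errors than Atp5l, at 0.10 and 0.09 against 0.07. Atp5g1 had a larger one still, at 0.12. Atp5b, the catalytic beta subunit, was at 388, 352 and 334 RPKM in WT and 277, 327 and 313 in KO. Its groups did not overlap, but WT replicate 4 and KO replicate 2 lay close together and the adjusted p was 0.153. Atp5a1, the alpha subunit of the head, averaged 292 ± 12.01 RPKM in WT against 268 ± 25.0 in KO, and its groups overlapped. Atp5c1, the rotating central stalk, differed by -0.09 (adjusted p = 0.444). Of the side stalk, Atp5h (subunit d) was the most abundant complex V member per length, at 530, 532 and 555 RPKM in WT and 483, 472 and 460 in KO. Its groups did not overlap (-0.19, adjusted p = 0.127), and 23.8% of its stretches were shared. Atp5f1 (subunit b) was at 155 ± 4.93 and 135 ± 2.98 RPKM (SD, n = 3 each, adjusted p = 0.113), also without overlap. The ring genes were low by comparison. Atp5g1 was at 5.26, 5.71 and 7.53 RPKM in WT and 5.55, 4.79 and 5.12 in KO, and Atp5g3 at 18.3, 19.4 and 23.4 in WT and 18.9, 18.1 and 19.0 in KO. In both, WT replicate 4 stood above the other 5 libraries.

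**Figure D4:**
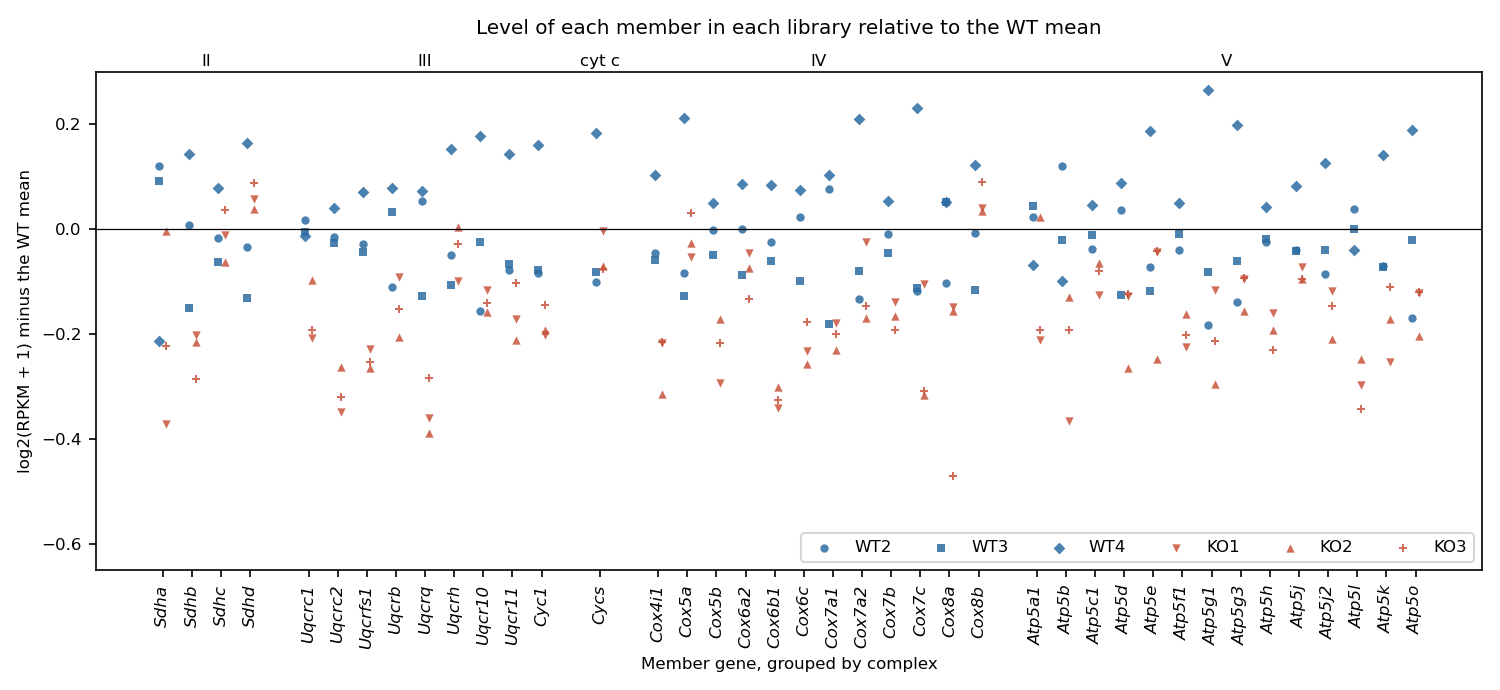
Level of each member in each library as log2(RPKM + 1) minus the WT mean of that gene, grouped by complex. On this deposited RPKM scale WT replicate 4 is the highest of the 6 libraries for 34 of 40 members, and KO points lie below 0 for most members.

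On the deposited RPKM scale, WT replicate 4 stood above the other libraries across the complexes. It was the highest of all 6 libraries for 34 of 40 members, and a KO library was the lowest for 34 of 40. No such count was made over all tested genes. Its summed RPKM over all genes was also the highest, at 517667, beside 459121 to 480087 in the other libraries. As a share of all RPKM the members took 1.27% there, beside 1.28% and 1.29% in WT replicates 2 and 3. Measured from the WT mean, the median over the members was -0.04, -0.06 and 0.09 in WT replicates 2, 3 and 4, and -0.14, -0.17 and -0.16 in KO replicates 1, 2 and 3. Less the median of all tested genes in the same library, these came to -0.11, -0.03 and 0.12 in WT and -0.01, -0.11 and -0.09 in KO, and the groups overlapped. Without WT replicate 4 the member median was -0.12, beside -0.11 for all tested genes, and 34 members were below 0, beside 67.8%. The same 4 of 40 members were called, beside 17.1% of all tested genes called lower in that fit.

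Transcript length moved with the deposited RPKM level in WT replicate 4. The deviation of WT replicate 4 from the other WT libraries had a Spearman correlation with exonic length of -0.30 over the 40 members and of -0.27 over 7573 genes, a description of 1 library whose points share its depth and preparation. Over the members it was 0.23 and 0.28 in WT replicates 2 and 3, and -0.23, 0.17 and -0.07 in KO replicates 1, 2 and 3. Each library was set against the mean of the others of its genotype, so these correlations are not independent. Among the 20 shorter members, those under 1793.5 bases, WT replicate 4 was the highest WT library in 19, and among the 20 longer ones in 15. The median fold change was -0.17 in both sets. The part of length in the difference between genotypes was not tested.

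**Figure D5:**
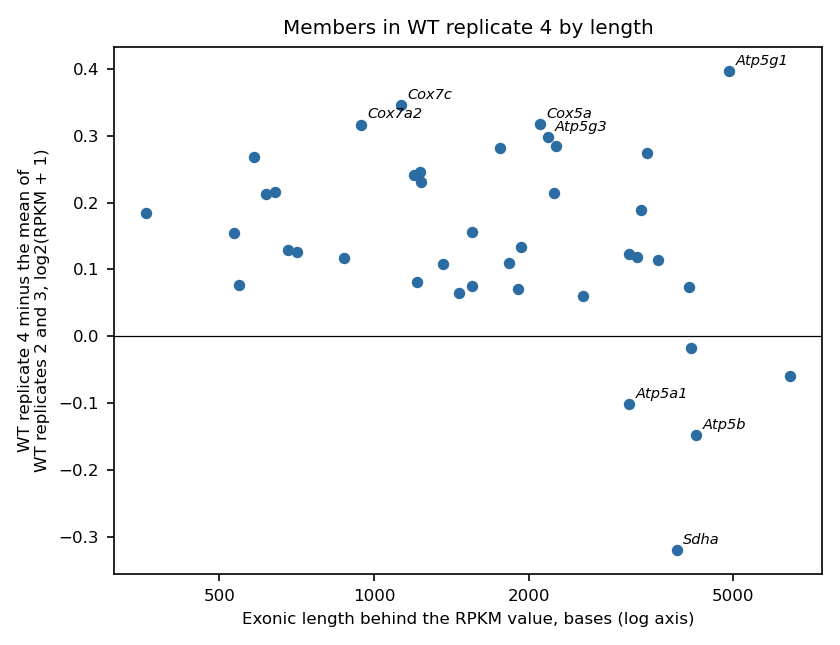
Deviation of each of the 40 members in WT replicate 4 from the mean of the other WT libraries, on the log2(RPKM + 1) scale, against exonic length in bases on a log axis. Shorter members tend to lie higher, with a Spearman correlation of -0.30.

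Promoter sequence was set beside the fold changes, because nuclear subunit genes are known to share sites for NRF-1, for GABP, an ETS factor, for YY1 and for ERR, the estrogen-related receptors. RefSeq (GRCm38.p6) gave a start for 31 of the 40 members, and each window ran from 250 bases before to 50 after the start. Both strands were searched. The NRF-1 motif (GCGC, any base, then TGCGC) was in 25.8% of the matched members, in 13.4% of matched tested genes and in 5.19% of all genes. The ETS motif CCGGAAG was in 35.5%, 22.7% and 9.93%, the YY1 motif AAGATGGC in 9.68%, 6.30% and 3.19%, and the ERR motif CAAGGTCA in 9.68%, 1.33% and 1.76%. The median fold change was -0.16 in the 8 members with the NRF-1 motif and -0.17 in the 23 without, and -0.18 in the 11 with the ETS motif and -0.17 in the 20 without. It was -0.16 in the 3 members with the YY1 motif and -0.11 in the 3 with the ERR motif. The 28 members without YY1 and the 28 without ERR each had a median of -0.17. The 200 bases before the start follow for the called members with an entry, Cox6b1 (chr7:30626115-30626314, minus strand) and Atp5l (chr9:44920743-44920942, minus strand). Beside them stand the members with a fold change above 0, Sdhd (chr9:50603850-50604049, minus strand) and Cox8b (chr7:140900447-140900646, minus strand). Each reads 5′ to 3′ on the gene's strand, with motif matches in capitals.
Cox6b1: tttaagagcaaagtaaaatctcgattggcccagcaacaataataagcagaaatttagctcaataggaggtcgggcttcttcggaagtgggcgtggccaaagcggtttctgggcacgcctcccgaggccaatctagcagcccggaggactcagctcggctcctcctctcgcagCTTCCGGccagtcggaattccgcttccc
Atp5l: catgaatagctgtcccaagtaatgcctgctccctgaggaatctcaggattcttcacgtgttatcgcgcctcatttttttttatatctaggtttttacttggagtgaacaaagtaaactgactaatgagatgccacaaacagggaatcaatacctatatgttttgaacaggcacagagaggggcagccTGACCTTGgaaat
Sdhd: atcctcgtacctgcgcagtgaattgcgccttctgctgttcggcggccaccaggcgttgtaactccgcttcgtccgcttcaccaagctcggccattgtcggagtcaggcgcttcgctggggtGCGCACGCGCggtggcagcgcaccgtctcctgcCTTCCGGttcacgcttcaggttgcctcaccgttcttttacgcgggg
Cox8b: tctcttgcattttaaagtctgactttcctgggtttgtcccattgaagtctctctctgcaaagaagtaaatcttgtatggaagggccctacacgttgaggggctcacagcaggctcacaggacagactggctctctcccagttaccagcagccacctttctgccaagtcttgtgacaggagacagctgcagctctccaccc
The capitals mark an ETS match in Cox6b1, an ERR match in Atp5l, and an NRF-1 and an ETS match in Sdhd, all read on the opposite strand, and Cox8b held no match in this stretch. A match is a description of the letters and not a measured binding site. Over the whole searched window, Atp5l also held an ETS match and Sdhd an ERR match, outside the bases printed here. The called genes Cox6b1 and Atp5l and the uncalled Sdhd thus all held an ETS match, and Atp5l and Sdhd both held an ERR match.

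The authors' deposited table gave smaller differences for these genes. Its log2 fold change was below 0 for 29 of 40 members, beside 50.8% of all genes in it, and its median was -0.06 over the members and -0.0043 over all genes. No member had an FDR under 0.05 in the authors' deposited table, beside 0.906% of its genes lower and 0.711% higher, and 2 members had a p under 0.05, both lower, beside 12.2% of genes lower at that p. In the authors' deposited table those were Uqcrq, at -0.20 (p = 0.0274, FDR 0.171), and Atp5l, at -0.18 (p = 0.0289, FDR 0.176). Cox6b1 stood at -0.16 and Uqcrc2 at -0.12 in the authors' deposited table. Over tested genes the values in the authors' deposited table exceeded the RPKM-based ones by a median of 0.10, and over the members by 0.11.

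Assembly factors, which help to make complexes II to V without staying in them, lay on both sides of 0 in the RPKM-based fit. Of 38 measured, 34 were tested, 15 were below 0 and 19 above, beside 67.6% of all tested genes below 0. The median of the assembly factors was 0.01, beside -0.09 over all tested genes. None was called, beside 13.5% of all tested genes called lower and 3.83% called higher. At an unadjusted p under 0.05 there were 2 lower and 2 higher, beside 25.8% and 7.59%. Cox19, needed to supply copper to complex IV, had the smallest p. It was at 1.52, 1.40 and 1.65 RPKM in WT and 1.11, 1.11 and 1.22 in KO (-0.23, adjusted p = 0.0507). Cox10, which makes a precursor of the heme A of complex IV, was at 3.02, 2.57 and 2.88 RPKM in WT and 3.33, 4.20 and 3.75 in KO (0.31, adjusted p = 0.057), and was singled out after its values were seen. With equal library medians 5 of the 34 assembly factors were called higher, beside 7.84% of all tested genes, and with totals without the 10 most abundant genes 6 were, beside 10.1%. The difference between assembly factors and subunits itself was not tested.

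Other isoforms and associated proteins of the complexes gave 8 of 10 tested genes below 0, beside 67.6% of all tested genes. Their median was -0.10, beside -0.09, and none was called. Ndufa4, a protein bound to complex IV, had the smallest p, at -0.26 (adjusted p = 0.0861), and was the 1 gene lower at an unadjusted p under 0.05. The mitochondrially encoded catalytic subunit mt-Co1 was at 7198, 6176 and 9087 RPKM in WT and 6540, 6251 and 5536 in KO, with WT replicate 4 again the highest library (-0.28, adjusted p = 0.239). Of its 50-base stretches 51.1% were shared with nuclear copies. The values of mt-Co3 and mt-Atp6 could not be told from such copies, as 99.9% and 99.5% of their stretches were shared, so the call of mt-Co3 (0.69, adjusted p = 0.0333) is uncertain. Among 9 tested regulators of respiratory genes, 7 were below 0, beside 67.6% of all tested genes. The 1 called was the coactivator Ppargc1a (PGC-1alpha), which was higher, beside 3.83% of all tested genes called higher. Ppargc1a was at 2.26, 1.68 and 1.37 RPKM in WT and 3.51, 5.49 and 4.004 in KO. It rose by 0.94 on the log2 scale (SE 0.16, adjusted p = 0.0082). Of 16 measured regulators, 9 could be tested. Ppargc1b, a relative of Ppargc1a, the receptor Esrrg and the factor Nrf1 did not pass the filter on low values. Neither did Pprc1, Gabpb1, Tfb1m and Ppara, and none of these has a test here. Ppargc1b was at 0.806, 0.816 and 1.22 RPKM in WT and 0.481, 0.451 and 0.344 in KO, without overlap. Nrf1 was at 1.05, 0.995 and 0.899 RPKM in WT and 0.71, 0.799 and 0.725 in KO, also without overlap. Esrrg was at 1.56, 0.847 and 1.62 RPKM in WT and 0.619, 0.915 and 0.725 in KO, and its groups overlapped. The authors' deposited table gave p = 0.00998 (FDR 0.109) for Ppargc1b, p = 0.0234 (FDR 0.158) for Nrf1 and p = 0.00316 (FDR 0.0756) for Esrrg, each lower in KO. These 3 were named after their values were seen. For the other untested regulators the authors' deposited table gave -0.19 for Pprc1, -0.07 for Tfb1m, 0.16 for Gabpb1 and 0.28 for Ppara. The p of these in the authors' deposited table was 0.294 to 0.767.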

How the data were processed

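Gastrocnemius RNA of 3 WT and 3 KO libraries was sequenced from fragmented mRNA copied with random hexamers, per the labels' protocols. The submitters' processing notes name the build GRCm39. Aligner, counter, annotation and strandedness: not given in the sources used here. The authors deposited RPKM per gene and library. No unit stands in the header. RPKM was inferred because value times exonic length times library total gave whole reads (within 0.02 of a read) for 11812 of 11815 genes. GENCODE M21 lengths gave whole reads for 80.4% of 11482 genes and for 35 of 40 members, and the remaining lengths were inferred. Members had 51 to 114702 reads in a library. The authors' log2 fold change, F score, and p-value and FDR columns are named per the file headers, with no test named. Every value column was mapped to a sample or to that comparison. Within each genotype no 2 libraries agreed within sampling noise (chi-square per degree of freedom at least 25.3).

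Differences were tested with limma-trend (limma 3.58.1, R 4.3.3) on log2(RPKM + 1) over the 7574 genes that reached 1 RPKM in 3 or more libraries. Genotype was the single term, and p-values were adjusted by Benjamini-Hochberg and called at 0.05. This scale understates changes of low genes. Isoform ratios used exact permutation tests. Alternatives were a pseudocount of 0.1, no filter, a filter of 5 RPKM, equal library medians, totals without the 10 most abundant genes, TPM scaling, each library left out, a replicate block and other p thresholds. The totals without the 10 genes and the TPM totals were sums of RPKM and not of counted reads. Limma-voom on the recovered reads was chosen after seeing the data.

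The members and lists were chosen with earlier results of these data known. Full values are given for called members, for the smallest p in each direction and the most abundant member of each complex, and for isoform pairs. From related lists they are given for up to 4 called genes or the one with the smallest p. Other genes were named after their values were seen. Marker lists for macrophages (1 tested, not called), fibroblasts (1 of 4 tested called higher) and red blood cells (0 of 4 called) were also read. Shared 50-base stretches and exon overlaps came from GENCODE M21 (GRCm38), and promoters from RefSeq GRCm38.p6, so coordinates are of GRCm38. Python 3.11.15, pandas 2.3.3, numpy 2.4.6, scipy 1.17.1 and matplotlib 3.10.9 did the rest.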

Additional observations from a re-analysis of the deposited data

How the results depend on the processing

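No member was called higher in the fit as reported or under any alternative. The 4 lower calls were kept with a pseudocount of 0.1, without a filter, with a filter of 5 RPKM and with limma-voom. They became 0 with equal library medians, with totals that leave out the 10 most abundant genes and with TPM scaling. At an unadjusted p under 0.05, 12 members were lower, beside 25.8% of all tested genes. At an adjusted p under 0.1, 7 members were lower. The share of all tested genes at that threshold was not counted, so the 7 cannot be set beside it. Leaving out 1 library gave 0 to 4. Over all tested genes, calls of 1021 lower and 290 higher became 402 and 137 with the 5 RPKM filter, 465 and 768 without the 10 abundant genes, 354 to 1293 and 117 to 344 with 1 library left out, 453 lower on the TPM scale and 594 higher with equal medians.

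The member median of -0.17 became -0.0445 with equal medians, -0.0943 on the TPM scale and 0.0089 without the abundant genes, where 19 members were below 0. There the medians of complexes II, III and V turned to 0.0732, 0.0145 and 0.0126, and with equal medians that of complex II to 0.0204. The share of lower among all calls was 77.9% as reported, 54.3% with equal medians, 37.7% without the abundant genes and 58.8% on the TPM scale. The Cox7a1 to Cox7a2 difference of -0.08 turned to 0.0357 without WT replicate 2, and ranged from -0.143 to 0.0357 with 1 library left out. The scaling alternatives change library totals alone, and beyond that the cause was not tested.

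Replicate numbers 2 and 3 occur in both genotypes, and the labels do not say that they pair libraries. Deviations correlated at 0.48 and 0.27 in the same-numbered pairs, and at 0.43 between WT replicate 4 and KO replicate 1. With the number as a replicate block, WT replicate 4 and KO replicate 1 have no partner. The genotype term of that fit therefore rests on replicates 2 and 3 of each genotype alone. There 2 members were called lower, beside 15.5% of all tested genes. The ratio of Cox6a2 to Cox6a1 was not run, because Cox6a1 was not analysed here. Depth limits Cox8a, with 51 reads in its lowest library.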
